A study of Sus scrofa with 4 samples.

Results

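The genes described here are 48 named symbols of the actin cytoskeleton, from actins and nonmuscle myosins to crosslinkers, scaffold proteins and factors of filament turnover, read from the gene counts by symbol. Rows with these symbols exist for 42 of the 48 among 35670 genes. No row carries the symbol MYH10, TPM3, FHL1, FHL2, PFN1 or PFN2. None of the 42 had fewer than 10 reads in every library, and all 42 passed the filter on low counts that kept 14617 genes. RNA came from porcine fetal fibroblasts, skin cells that serve as nuclear donors in cloning, and the study asked what more BRG1 in such cells does to their chromatin. Of 4 libraries, 2 are labelled as having BRG1 over-expressed (it is the ATPase of BAF chromatin remodelling complexes), and 2 are labelled wild type. The cells of both groups had been starved of serum, and pTK-642 stands in the titles of both without an explanation. Whether a group's libraries came from separate cultures or animals is not stated, and the p-values then speak only to how far these libraries spread.

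Actin filaments give a fibroblast its shape and its pull. Filaments are started by nucleators (formins and the Arp2/3 complex), fed and trimmed by monomer-binding, severing and capping proteins, tied together by crosslinkers such as filamins and alpha-actinins, and drawn past each other by nonmuscle myosin II, which is switched on when myosin light chain kinase phosphorylates its regulatory light chain. In fibroblasts these parts form stress fibres, bundles that end at sites of adhesion, and many of their genes are known targets of the transcription factor SRF.

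Counts summed over genes ranged from 34486400 to 38126860 per library. SMARCA4, the gene for BRG1, did not pass as higher in the BRG1-labelled libraries, with 159 and 163 CPM there against 154 and 179 CPM in controls (log2 fold change -0.04 ± 0.11, SE; adjusted p = 0.765; 95% interval -0.27 to 0.18). The counts of this gene therefore do not check the label, and every direction below is that of libraries labelled BRG1 against libraries labelled wild type. Reads outside annotated genes made up 10.4% ± 0.19 of all listed reads in the BRG1-labelled libraries and 6.73% ± 0.87 in controls (SD, n = 2 each), and genes that stretch over more of the genome tended to higher log2 fold changes (Spearman correlation 0.29 over 11328 genes measured in the same 4 libraries). CPM here means reads as a rate per 1e+06 gene reads, scaled by TMM, and a fold change passed when its p, adjusted over all 14617 genes, was under 0.05 in edgeR's quasi-likelihood test.

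The 9 fibroblast markers with a row were detected in all 4 libraries and summed to 47528 to 47890 CPM in the BRG1-labelled libraries, against 26939 to 31399 CPM in controls, with 6 of them passing as higher. Among the other 3, VIM had 5684 and 5626 CPM in the BRG1-labelled libraries and 6950 and 6723 CPM in controls, and COL3A1 had 6124 and 6097 CPM in the BRG1-labelled libraries and 6539 and 7618 CPM in controls. Of 15 skeletal muscle markers in the files 12 had fewer than 10 reads in every library and 7 were at 0, MYOD1 and PAX7 among them, with a summed level of 1.36 to 1.53 CPM in the BRG1-labelled libraries and 1.86 to 2.34 in controls. The 8 smooth muscle and pericyte markers summed to 128 to 129.6 CPM in the BRG1-labelled libraries, against 54.3 to 74.8 CPM in controls, and 4 of 6 tested passed as higher. Of the 8, KCNMB1 was at 0, RGS5 had at most 6 reads in any library, and LMOD1 had 1141 and 1228 reads in the BRG1-labelled libraries and 136 and 209 in controls. Summed levels were 8.18 to 8.97 CPM in the BRG1-labelled libraries and 5.17 to 6.03 in controls for 6 endothelial markers (TEK at 0), and 3.16 to 4.41 CPM in the BRG1-labelled libraries and 1.60 to 3.02 in controls for 6 leukocyte markers (PTPRC at 0). They were 2.65 to 3.61 CPM in the BRG1-labelled libraries and 2.83 to 3.14 in controls for 6 keratinocyte markers (KRT5 and KRT1 at 0), and 1.23 to 1.35 CPM in the BRG1-labelled libraries and 0.841 to 1.20 in controls for 5 cardiac ones (NPPA and TNNT2 at 0). Of the markers tested, 1 of 3 skeletal muscle and 1 of 2 keratinocyte ones passed as lower and 1 of 3 endothelial ones as higher. Neither the 2 leukocyte markers nor the 1 cardiac marker passed. Among all genes 21.0% were higher and 23.6% lower. The part of other cell types in the results was not tested, and in RNA of whole cultures fewer cells of a type and less RNA per cell cannot be told apart.

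Among the genes of myosin II, tropomyosins, calponins, crosslinkers and scaffold proteins 12 of 21 rose and 1 fell. Among those of filament turnover and nucleation 2 of 11 rose and 4 fell. Of all genes tested 21.0% rose and 23.6% fell. Of the 42 actin genes 16 passed as higher, against 21.0% of all genes tested, and 5 passed as lower, against 23.6% of all genes, while 21 did not pass. The rises included RFLNB, a filamin-binding protein (13.6-fold), MYLK, the myosin light chain kinase (4.77-fold), and CNN2, a calponin (2.41-fold). The falls were CAPG, a capping protein, at 0.498-fold, and ARPC5, CORO1B, CFL1 and CSRP1 at 0.766-fold to 0.810-fold of controls. Of these 5 only CAPG still passed with scaling by library size alone or with the trend of counts with gene span taken out. Both BRG1-labelled libraries lay above both controls for 23 of the 42, against 37.5% of all genes, and below them for 8, against 35.7%. The median log2 fold change of the 42 was 0.17, beside 0.02 over all genes tested.

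**Figure D1:**
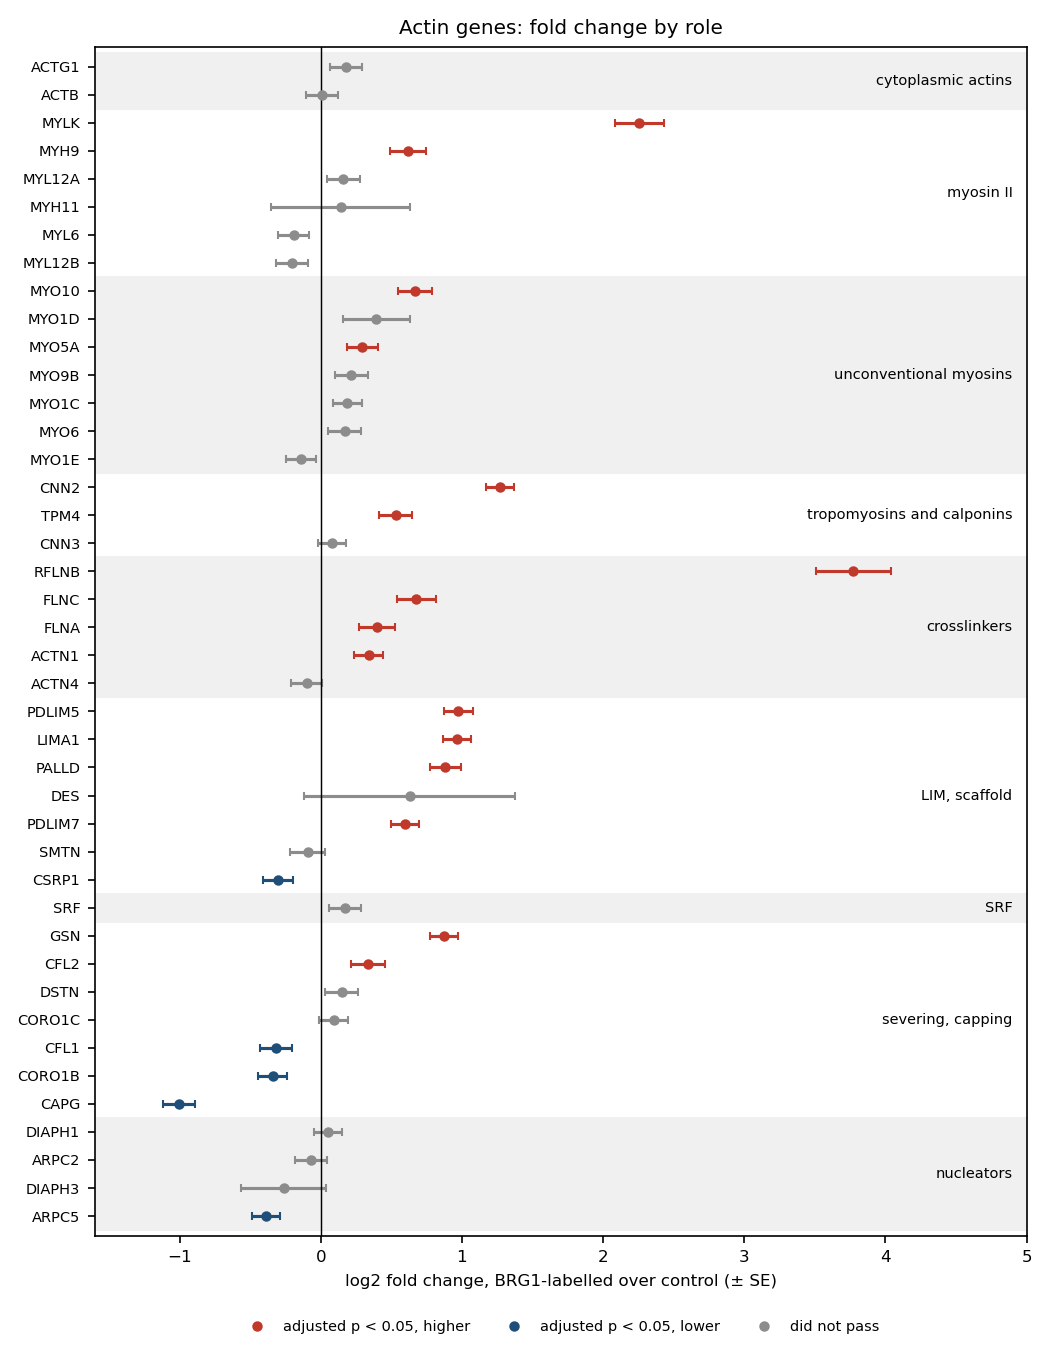
Log2 fold change of BRG1-labelled over control libraries (x axis) with its SE for the 42 tested actin genes, ordered within their roles; red and blue points passed an adjusted p of 0.05 as higher or lower, grey points did not. RFLNB at 3.77 and MYLK at 2.25 stand far to the right, and CAPG at -1.0 farthest to the left.

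As a share of each library the 42 genes took 2.20% and 2.21% of gene reads in the BRG1-labelled libraries, against 1.53% and 1.63% in controls. The groups did not overlap in this share, but an exact permutation test of 2 against 2 libraries cannot give a two-sided p below 0.333. Such a share scales by library size alone, under which the median log2 fold change over all genes was 0.24, beside 0.02 with TMM. FLNA, ACTG1, ACTB, TPM4 and MYH9 held between 60.1% and 64.1% of these reads in every library. FLNA alone took 0.420% and 0.422% of gene reads in the BRG1-labelled libraries and 0.241% and 0.306% in controls. Reads are not corrected for transcript length here, so shares do not rank the amounts of different proteins' transcripts.

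Neither of the cytoplasmic actins, the building blocks of the filaments, passed. ACTG1, gamma-actin, had 3740 and 3803 CPM in the BRG1-labelled libraries and 3287 and 3386 CPM in controls. The groups did not overlap, but the log2 fold change of 0.18 ± 0.11 did not pass (adjusted p = 0.225). ACTB, beta-actin, often used as a constant reference gene, had 1900 and 1982 CPM in the BRG1-labelled libraries, between the 1846 and 2004 CPM of the controls, with a log2 fold change of 0.01 ± 0.11 (adjusted p = 0.943; 95% interval -0.23 to 0.25). With the trend of counts with gene span taken out of each library both genes passed as higher, at 0.55 for ACTG1 (adjusted p = 0.000256) and 0.29 for ACTB (adjusted p = 0.0230), and with scaling by library size alone ACTG1 passed at 0.40 (adjusted p = 0.00835). ACTB turned to -0.054 without control 1 and to -0.023 without BRG1-labelled library 2, and passed in neither. Within a library, where no scaling enters, there were 1.97 and 1.92 reads of ACTG1 per read of ACTB in the BRG1-labelled libraries and 1.78 and 1.69 in controls. The coding sequences of these actins are nearly alike, so that reads which fit both may have been set aside or misplaced.

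Among the 6 tested genes of myosin II, the motor of stress fibres, 2 rose and none fell, beside 21.0% higher and 23.6% lower among all genes. The nonmuscle heavy chain MYH9 and the kinase MYLK rose, while the heavy chain MYH11 and the light chains MYL6, MYL12A and MYL12B did not pass. MYLK (ENSSSCG00000011867; Sscrofa11.1 chromosome 13, 136509878 to 136809674), whose kinase switches the motor on, had 58.1 and 57.0 CPM in the BRG1-labelled libraries, against 9.25 and 14.9 CPM in controls. The BRG1-labelled libraries lay close together and far above both controls, which differed from each other by more than the BRG1-labelled pair did. The log2 fold change was 2.25 ± 0.17 (adjusted p = 1.04e-07), with a range from 1.94 to 2.62 when each library was left out in turn. MYH9 (ENSSSCG00000000145; chromosome 5, 11365603 to 11456475), the heavy chain of nonmuscle myosin IIA, had 1679 and 1674 CPM in the BRG1-labelled libraries and 951 and 1232 CPM in controls. Its log2 fold change of 0.62 ± 0.13 passed (adjusted p = 0.00118), but not without BRG1-labelled library 1 (adjusted p = 0.0517) or library 2 (adjusted p = 0.0516), and it was 0.80 without control 2 and 0.44 without control 1.

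The essential light chain MYL6 had a log2 fold change of -0.19 ± 0.11 (adjusted p = 0.161), and the regulatory light chains MYL12A and MYL12B stood at 0.16 ± 0.12 and -0.20 ± 0.11 (adjusted p = 0.284 and 0.150). The sign of MYL6 turned, to 0.033 when only library size was used for scaling and to 0.17 with the span trend removed, that of MYL12B to 0.023 with library size alone, and that of MYL12A to -0.014 without control 2. Within libraries there were 2.33 and 2.11 reads of MYL12A per read of MYL12B in the BRG1-labelled libraries and 1.77 and 1.67 in controls. MYL12A and MYL12B encode nearly the same protein, so the division of reads between them is uncertain. Of the MYL6 light chain and the MYH9 heavy chain, there were 3.26 and 3.12 reads of MYH9 per read of MYL6 in the BRG1-labelled libraries, against 1.505 and 2.17 in controls. MYH11, the smooth muscle myosin heavy chain, was close to the lower limit of detection, with 40 and 61 reads in the BRG1-labelled libraries and 34 and 46 in controls (adjusted p = 0.842).

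**Figure D2:**
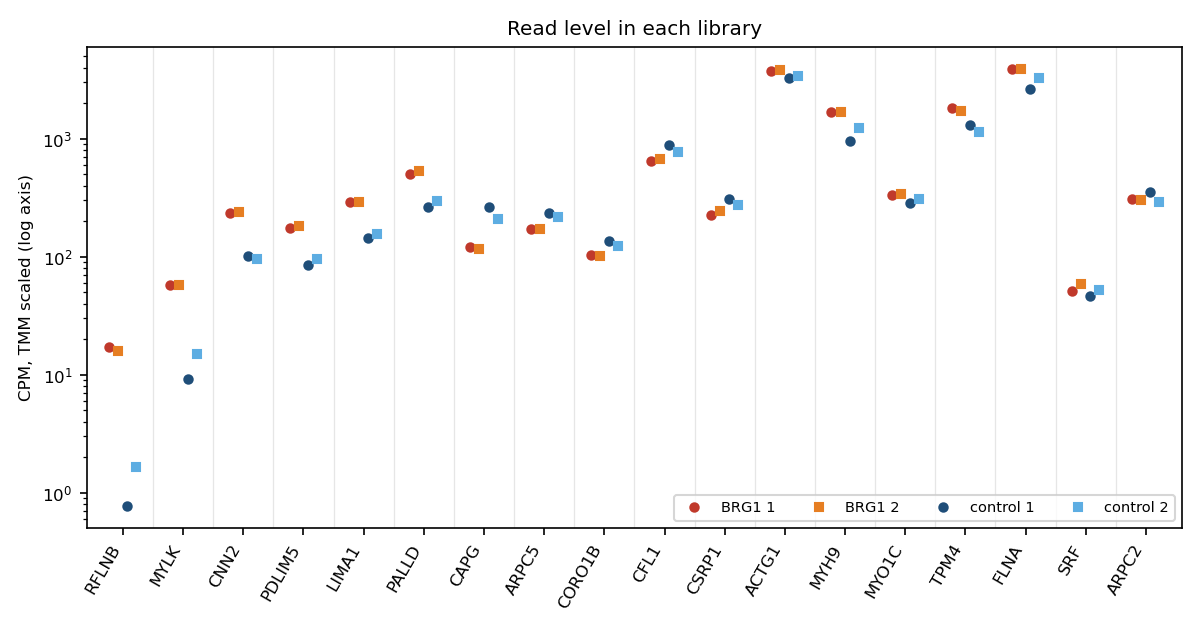
TMM-scaled CPM (log axis) of 18 actin genes in each of the 4 libraries: the largest rises, the falls, and the gene with the most reads of each role. The BRG1-labelled libraries (red, orange) lie above both controls (dark and light blue) for RFLNB to PALLD and below them for CAPG to CSRP1, while SRF and ARPC2 overlap.

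Unconventional myosins, single motors that move membranes and cargo or anchor them to actin, numbered 7. Of these MYO10 and MYO5A rose and none fell, beside 21.0% higher and 23.6% lower among all genes, and 6 had both BRG1-labelled libraries above both controls, beside 37.5% of all genes. MYO10, a motor found at the tips of filopodia, had 160.0 and 156 CPM in the BRG1-labelled libraries and 86.6 and 113 CPM in controls (log2 fold change 0.66 ± 0.12; adjusted p = 0.000404). MYO5A, which carries vesicles along actin, had a log2 fold change of 0.29 ± 0.11 (adjusted p = 0.0401). That call was lost without BRG1-labelled library 1 (adjusted p = 0.479), without library 2 (adjusted p = 0.135) and with the span trend removed, where the value was 0.017, and it was just missed with DESeq2 (adjusted p = 0.0560) and without a filter (adjusted p = 0.0598). MYO1C, a membrane-bound class I myosin, had the most reads of this group, with 336 and 340.4 CPM in the BRG1-labelled libraries and 287 and 306 CPM in controls (0.19 ± 0.10; adjusted p = 0.147). The groups did not overlap for MYO1C, yet the difference did not pass. MYO9B, MYO6, which moves toward the pointed end of filaments, and MYO1D ranged from 0.17 to 0.39, and MYO1E stood at -0.14, none of which passed.

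Of 3 tropomyosin and calponin genes tested, tropomyosin 4 and calponin 2, which lie along the filament, rose, beside 21.0% higher among all genes. None fell, beside 23.6% lower. CNN2 (chromosome 2, 77376020 to 77385594) had 235 and 242 CPM in the BRG1-labelled libraries, against 102 and 96.0 CPM in controls. Both pairs of libraries were tight and the groups were wide apart (log2 fold change 1.27 ± 0.10; adjusted p = 1.39e-07; 1.21 to 1.31 with each library left out). Its relative CNN3 had 252 and 247 CPM in the BRG1-labelled libraries and 233 and 239 CPM in controls (0.08 ± 0.10; adjusted p = 0.551). There were thus 0.935 and 0.980 reads of CNN2 per read of CNN3 in the BRG1-labelled libraries, and 0.437 and 0.402 in controls. TPM4 had 1814 and 1722 CPM in the BRG1-labelled libraries and 1315 and 1129 CPM in controls (0.53 ± 0.12; adjusted p = 0.00177), a call lost without BRG1-labelled library 1 (adjusted p = 0.137) or library 2 (adjusted p = 0.0820).

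Of the 5 crosslinking genes 4 rose and none fell, beside 21.0% higher and 23.6% lower among all genes, and FLNA and ACTN1 of these 4 lost the call without either 1 of the BRG1-labelled libraries. RFLNB (ENSSSCG00000038618; chromosome 12, 47307657 to 47316652), refilin B, a small protein that binds filamin A and is known from mammalian cell culture to favour filament bundles, had 17.1 and 15.8 CPM in the BRG1-labelled libraries and 0.771 and 1.65 CPM in controls. These values rest on 669 and 590 reads in the BRG1-labelled libraries and on 27 and 53 reads in controls. The log2 fold change of 3.77 ± 0.27 (adjusted p = 4.09e-08) was larger than that of 99.5% of all genes tested and ranged from 3.30 to 4.39 with each library left out. Its partner FLNA, filamin A, which joins filaments into networks and links them to the membrane, had 3882 and 3906 CPM in the BRG1-labelled libraries and 2624 and 3286 CPM in controls. FLNA passed (0.40 ± 0.13; adjusted p = 0.0203), though not without BRG1-labelled library 1 (adjusted p = 0.299) or library 2 (adjusted p = 0.320), and its value was 0.24 without control 1 and 0.55 without control 2. There were 0.00439 and 0.00403 reads of RFLNB per read of FLNA in the BRG1-labelled libraries, and 0.000294 and 0.000502 in controls.

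FLNC, the filamin of muscle, had 293 and 293 CPM in the BRG1-labelled libraries and 150.4 and 216 CPM in controls (0.68 ± 0.14; adjusted p = 0.00102). The controls stood farther apart than the BRG1-labelled libraries, and the log2 fold change was 0.95 without control 2 and 0.43 without control 1. ACTN1, an alpha-actinin of stress fibres and adhesions, rose by 0.34 ± 0.10 on the log2 scale (adjusted p = 0.0145), with the call lost without BRG1-labelled library 1 (adjusted p = 0.267), without library 2 (adjusted p = 0.285) and with the span trend removed (0.17; adjusted p = 0.125). Its relative ACTN4 did not pass (-0.10 ± 0.11; adjusted p = 0.494), and its sign turned to 0.13 with library size alone. Reads of ACTN1 per read of ACTN4 numbered 1.65 and 1.55 in the BRG1-labelled libraries, against 1.24 and 1.12 in controls.

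**Figure D3:**
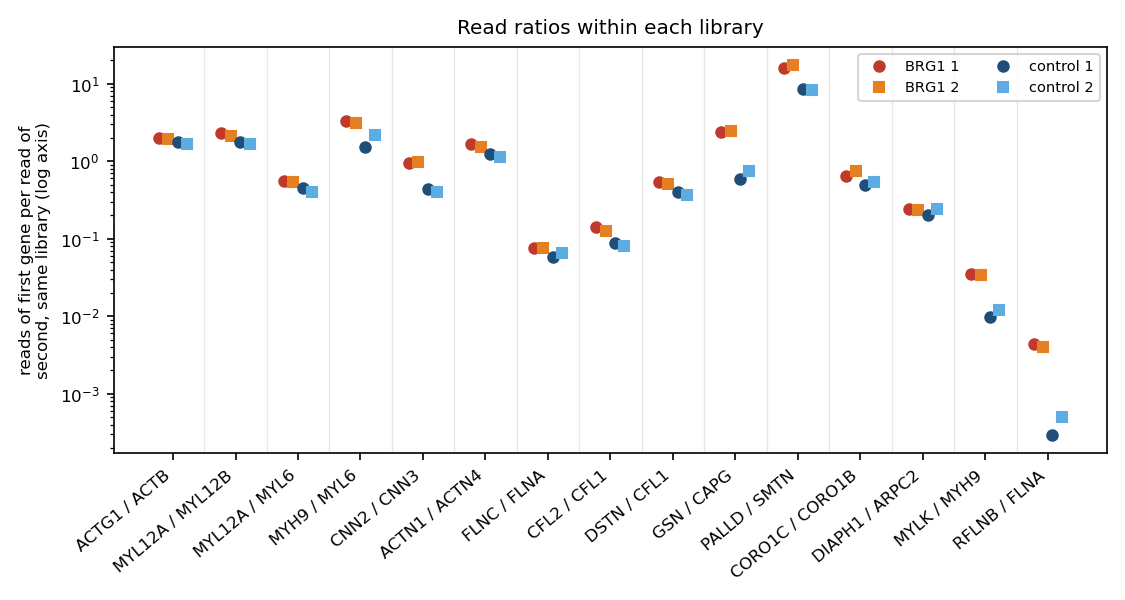
Reads of one actin gene per read of another in the same library (log axis), a measure free of any scaling between libraries, for 15 pairs. Each pair is written with the gene of the higher log2 fold change on top, so the common direction follows from the choice; both BRG1-labelled libraries (red, orange) lie above both controls (dark and light blue) for 14 pairs, most widely for RFLNB per FLNA, and overlap them for DIAPH1 per ARPC2, at 0.241 and 0.236 in the BRG1-labelled libraries and 0.202 and 0.240 in controls.

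Among the LIM and scaffold proteins of stress fibres 4 of 7 rose and 1 fell, beside 21.0% higher and 23.6% lower among all genes. PDLIM5, a PDZ and LIM protein that binds alpha-actinin, had 174 and 182 CPM in the BRG1-labelled libraries and 85.6 and 95.5 CPM in controls (0.97 ± 0.10; adjusted p = 2.72e-06). LIMA1, also called EPLIN, which bundles filaments and slows their loss of subunits, had 292 and 291 CPM in the BRG1-labelled libraries and 144 and 155 CPM in controls (0.96 ± 0.10; adjusted p = 2.43e-06). PALLD, palladin, a scaffold of the dense bodies along stress fibres, had 503 and 532 CPM in the BRG1-labelled libraries and 264 and 297 CPM in controls (0.88 ± 0.11; adjusted p = 1.12e-05). These 3 genes were 1.84-fold to 1.96-fold higher, with no overlap of the groups, and each passed with any 1 library left out.

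PDLIM7, another PDZ and LIM protein, rose by 0.60 ± 0.10 on the log2 scale (adjusted p = 0.000197). CSRP1, a small LIM protein of smooth muscle and fibroblasts, had 226 and 246 CPM in the BRG1-labelled libraries, against 309.6 and 273 CPM in controls. Its fall to 0.810-fold (-0.30 ± 0.11; adjusted p = 0.0317) did not pass without BRG1-labelled library 1 (-0.24; adjusted p = 0.452), without library 2 (-0.37; adjusted p = 0.211), with library size alone (-0.078; adjusted p = 0.570) or with the span trend removed (-0.23; adjusted p = 0.0666). SMTN, smoothelin, a marker of contractile smooth muscle, overlapped between groups, with 31.2 and 31.0 CPM in the BRG1-labelled libraries and 30.5 and 35.8 CPM in controls (adjusted p = 0.581). DES, desmin, the intermediate filament of muscle, was hardly detected, with 36 and 12 reads in the BRG1-labelled libraries and 17 and 10 in controls (adjusted p = 0.522).

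SRF itself, the factor that drives many of these genes, had 51.6 and 59.0 CPM in the BRG1-labelled libraries and 46.2 and 52.0 CPM in controls. The groups overlapped and the log2 fold change of 0.17 ± 0.11 did not pass (adjusted p = 0.239), but it passed at 0.40 with library size alone (adjusted p = 0.0111), at 0.39 with the span trend removed (adjusted p = 0.0133) and at 0.24 without control 2 (adjusted p = 0.0229). Of 6 partners of SRF, MRTFB, a cofactor released by actin polymerisation, rose, with 36.5 and 37.3 CPM in the BRG1-labelled libraries and 15.6 and 19.3 CPM in controls (1.08 ± 0.14; adjusted p = 1.74e-05). ELK3 and ELK1, ETS factors that compete with such cofactors for SRF, fell by 0.77 and 0.52 on the log2 scale (adjusted p = 2.10e-05 and 0.00178). The remaining partners MRTFA, MYOCD and ELK4 stood at 0.30, 0.22 and 0.21 and did not pass (adjusted p = 0.117, 0.414 and 0.286). These calls stand beside 21.0% higher and 23.6% lower among all genes.

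Of 7 factors of filament turnover 2 passed as higher and 3 as lower, beside 21.0% and 23.6% of all genes. GSN, gelsolin, which severs and caps filaments when calcium is high, had 284 and 284 CPM in the BRG1-labelled libraries and 153 and 158 CPM in controls (0.87 ± 0.10; adjusted p = 5.71e-06). CAPG (ENSSSCG00000008239; chromosome 3, 59335483 to 59366855), a gelsolin relative that caps but does not sever, had 120.3 and 115 CPM in the BRG1-labelled libraries, against 262 and 210.2 CPM in controls. CAPG had a log2 fold change of -1.0 ± 0.12 (adjusted p = 6.37e-06), and its value ranged from -1.17 to -0.84 with each library left out. These relatives thus moved in opposite directions, and reads of GSN per read of CAPG numbered 2.36 and 2.46 in the BRG1-labelled libraries and 0.582 and 0.751 in controls.

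The cofilins, which sever filaments and free their subunits, also parted. CFL1, the cofilin of most cells, had 652 and 679 CPM in the BRG1-labelled libraries and 893 and 767 CPM in controls (-0.32 ± 0.11; adjusted p = 0.0321). CFL2, the cofilin typical of muscle, had 92.2 and 84.8 CPM in the BRG1-labelled libraries and 79.1 and 61.1 CPM in controls (0.34 ± 0.12; adjusted p = 0.0367). Reads of CFL2 per read of CFL1 numbered 0.141 and 0.125 in the BRG1-labelled libraries, against 0.0887 and 0.0797 in controls. Both calls were near the threshold. That of CFL1 was lost without BRG1-labelled library 1 (adjusted p = 0.420), without library 2 (adjusted p = 0.311), with library size alone (-0.092; adjusted p = 0.515) and with the span trend removed, where it turned to 0.038, and it was -0.21 without control 1. That of CFL2 was lost without BRG1-labelled library 1 (adjusted p = 0.301), without library 2 (adjusted p = 0.114) and without control 2 (0.15; adjusted p = 0.102), and it was 0.53 without control 1. With the replicate number as a block in the fit the call of CFL1 was lost as well (-0.31, adjusted p = 0.0567). DSTN, destrin, a relative of the cofilins, did not pass (0.15 ± 0.12, adjusted p = 0.335).

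CORO1B, a coronin that helps to take apart Arp2/3 branches, had 104 and 101 CPM in the BRG1-labelled libraries and 137 and 123 CPM in controls (-0.34 ± 0.10; adjusted p = 0.0136). That fall did not pass without BRG1-labelled library 1 (adjusted p = 0.180), without library 2 (adjusted p = 0.245), with library size alone (adjusted p = 0.372) or with the span trend removed (adjusted p = 0.745). CORO1C, its relative, stood at 0.09 ± 0.11 (adjusted p = 0.512). Profilin 1, which hands actin subunits to formins, is left blank in the files' symbol column, and its row was found through the gene name table. PFN1 had 310.4 and 306 CPM in the BRG1-labelled libraries, against 410.2 and 359 CPM in controls (-0.32 ± 0.11; adjusted p = 0.0243), and is not among the 42.

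Of the 4 nucleator genes only ARPC5 passed, as lower, beside 21.0% higher and 23.6% lower among all genes. ARPC5, a subunit of the Arp2/3 complex, had 172 and 170.2 CPM in the BRG1-labelled libraries and 232 and 215 CPM in controls (-0.39 ± 0.10; adjusted p = 0.00578). The call was lost without BRG1-labelled library 1 (adjusted p = 0.165), without library 2 (adjusted p = 0.184), with library size alone (-0.16; adjusted p = 0.202) and with the span trend removed (-0.14; adjusted p = 0.220). ARPC2, which lies at the core of the same complex, had 308 and 304 CPM in the BRG1-labelled libraries, between the 351 and 289.9 CPM of the controls (adjusted p = 0.664). The formins DIAPH1 and DIAPH3, which nucleate and extend unbranched filaments, stood at 0.05 ± 0.10 and -0.26 ± 0.30 (adjusted p = 0.697 and 0.510).

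**Figure D4:**
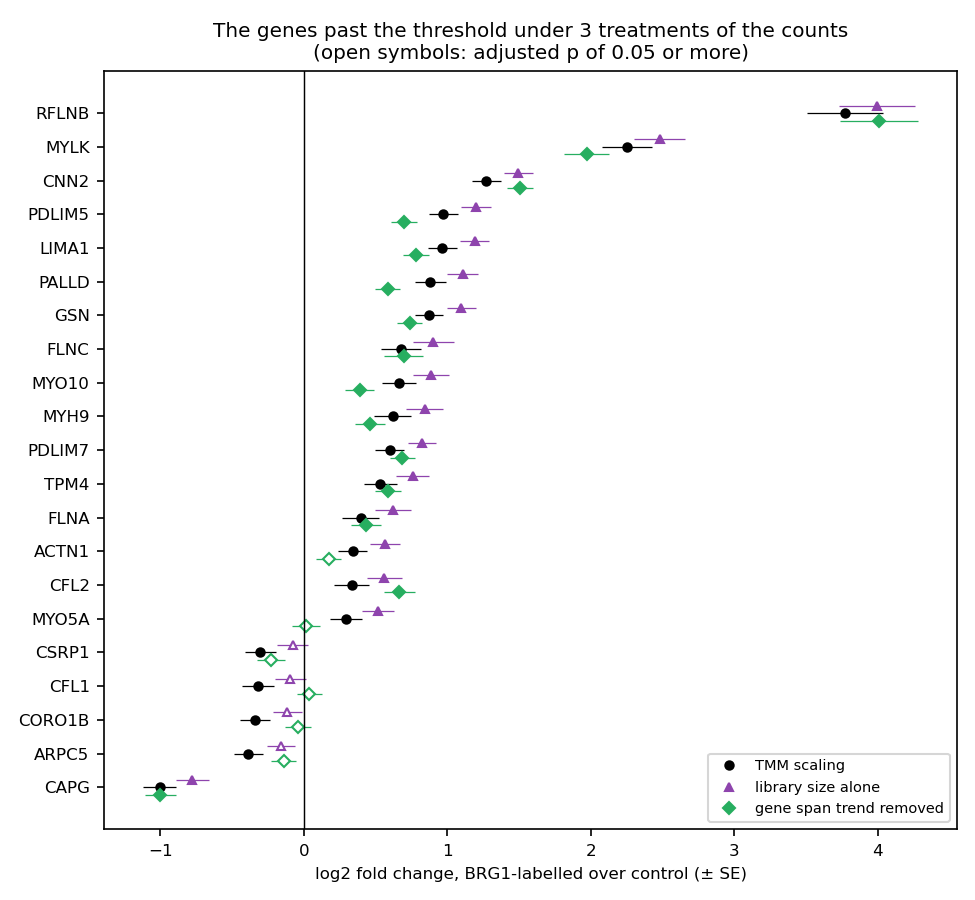
Log2 fold change with its SE for the 21 actin genes past the threshold, with TMM scaling (black circles), scaling by library size alone (purple triangles) and the trend of counts with gene span taken out of each library (green diamonds); open symbols have an adjusted p of 0.05 or more. CAPG stays below 0 with filled symbols in all 3, while ARPC5, CORO1B, CFL1 and CSRP1 have filled symbols with TMM scaling only.

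Other treatments of the counts moved the calls. When libraries were scaled by their size only, all genes had a median of 0.24, beside 0.02 with TMM, a shift that by itself adds rises and removes falls, and 27 of the 42 actin genes passed as higher, against 33.0% of all genes, and 1 as lower, against 14.6%. With the span trend removed 17 passed as higher, against 20.9% of all genes, and 2 as lower, against 21.6%. Of the 16 rises ACTN1 and MYO5A no longer passed with the span trend removed. In both treatments CAPG was the only one of the 5 falls that still passed, and the second fall with the span trend removed was that of MYO1E (-0.42; adjusted p = 0.00423). Without BRG1-labelled library 1, and likewise without library 2, fewer of the 42 genes passed, and fewer of all genes tested as well. Median log2 fold changes of the 42 were then 0.20 and 0.17, beside 0.02 and 0.01 over all genes. CNN2, FLNC, GSN, LIMA1, MYLK, MYO10, PALLD, PDLIM5, PDLIM7 and RFLNB as rises and CAPG as a fall passed with each of the 4 libraries left out in turn, with library size alone and with the span trend removed. The spread between controls was the wider one, since the median absolute log2 difference over the 42 genes was 0.051 between the BRG1-labelled libraries and 0.22 between controls.

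Other genes of the actin cytoskeleton, in 7 lists that hold none of the 48, were counted in the same fit. Of 110 tested 33 rose and 29 fell, with a median log2 fold change of 0.06, beside 21.0% higher and 23.6% lower among all genes tested, against which the counts of each list below are to be read. Among genes for capping, severing and monomer binding 6 of 22 rose and 4 fell. SVIL, supervillin, a membrane-bound relative of gelsolin that binds myosin II, had 92.1 and 92.8 CPM in the BRG1-labelled libraries and 14.2 and 18.7 CPM in controls (2.49 ± 0.13; adjusted p = 2.94e-09). In the same list CORO2B, a coronin, fell by 1.08 ± 0.10 and TMOD1, which caps pointed ends, by 1.78 ± 0.19 on the log2 scale (adjusted p = 8.47e-07 and 2.95e-06). Of 19 bundling and membrane-linking genes 6 rose and 8 fell, with the bundling plastins PLS1 and PLS3 at 2.04 ± 0.16 and 1.13 ± 0.11 (adjusted p = 1.11e-07 and 7.94e-07). Among the falls of that list, whose median was -0.12, EZR, ezrin, which ties filaments to the membrane, had 199 and 189 CPM in the BRG1-labelled libraries and 313 and 288 CPM in controls (-0.63 ± 0.10, adjusted p = 0.000164). Of its relatives, RDX, radixin, rose by 0.47 ± 0.10 and MSN, moesin, fell by 0.30 ± 0.11 on the log2 scale (adjusted p = 0.00132 and 0.034).

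**Figure D5:**
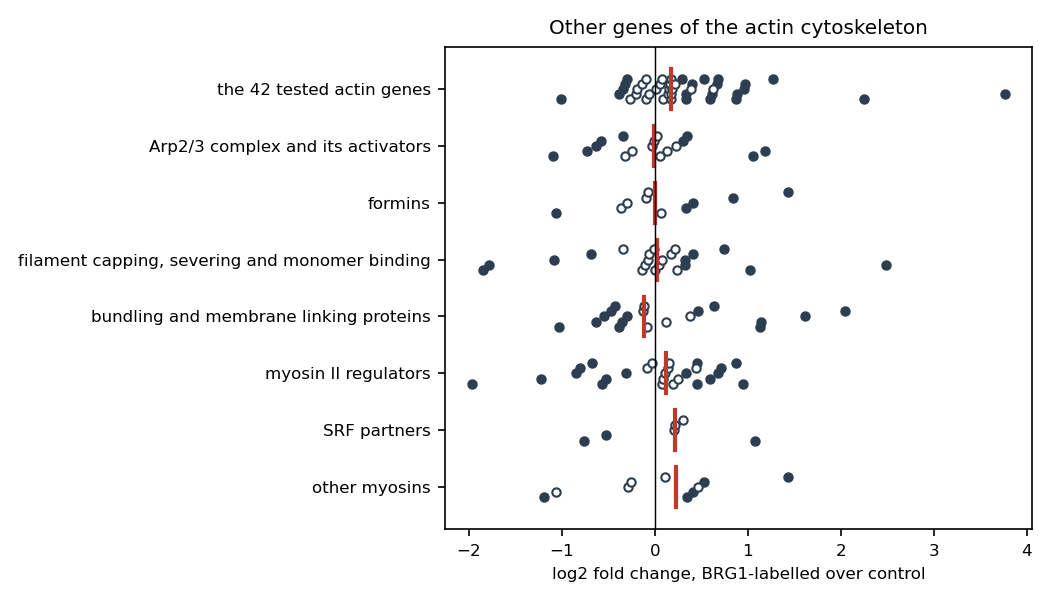
Log2 fold change (x axis) of the 42 tested actin genes and of the members of 7 further lists of actin genes; each point is a gene, filled where the adjusted p was under 0.05, and red bars are list medians. Filled points lie on both sides of 0 in each of the 8 rows, and the medians lie between -0.12 and 0.23.

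Regulators of myosin II contraction gave 8 rises and 8 falls among 26 genes, with log2 fold changes from -1.96 to 0.95. The 3 with the smallest adjusted p were all falls. RND1, a protein that loosens stress fibres, had 40.1 and 39.0 CPM in the BRG1-labelled libraries and 167 and 142 CPM in controls (-1.96 ± 0.11; adjusted p = 4.88e-09). ARHGEF2, an exchange factor that microtubules hold back, fell by 1.23 ± 0.11 on the log2 scale and RHOC by 0.81 ± 0.11 (adjusted p = 3.24e-07 and 3.32e-05). Among the rises ROCK2, a kinase that holds the myosin light chain phosphorylated, had 88.5 and 83.2 CPM in the BRG1-labelled libraries and 53.8 and 53.2 CPM in controls (0.68 ± 0.10; adjusted p = 7.5e-05). Of 10 other myosin genes 4 rose and 1 fell. MYL9, the regulatory light chain most typical of smooth muscle, had 176 and 186 CPM in the BRG1-labelled libraries and 69.5 and 64.6 CPM in controls (1.43 ± 0.10; adjusted p = 4.81e-08), whereas neither MYL12A nor MYL12B passed. MYO9A, an unconventional myosin, rose by 0.53 ± 0.14 (adjusted p = 0.00720).

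Of 17 genes of the Arp2/3 complex and its activators 4 rose and 5 fell. ARPC1B, an Arp2/3 subunit, had 174 and 179 CPM in the BRG1-labelled libraries and 403 and 351 CPM in controls (-1.09 ± 0.11; adjusted p = 1.26e-06), while ABI2 and WASF3, parts of the complex that activates it, rose by 1.18 ± 0.19 and 1.06 ± 0.18 (adjusted p = 0.000116 and 0.000185). Of 10 formins 4 rose and 1 fell, with FMNL2 and DAAM2 at 1.43 ± 0.12 and 0.85 ± 0.11 and FMNL3 at -1.06 ± 0.10 (adjusted p = 2.07e-07, 1.91e-05 and 1.14e-06). The lists of the 42 genes and of these others were drawn up with earlier results of the same libraries known, so their counts describe these libraries and do not test the machinery as a whole.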

How the data were processed

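Per the file headers, labels and values, the authors deposited 1 file of raw read counts per Ensembl gene for each of 4 libraries, not normalized. STAR, Cufflinks, SAMtools, FastQC, edgeR and DESeq2 are named in the submitters' processing notes, with build Sscrofa11.1. How reads were counted, on which strand and with which annotation release was not stated in the sources used here. Overlapping or antisense genes can thus share reads. In the RefSeq table of the same build, which gave positions and gene spans for 40 of the 42 genes, 10 overlap another gene. They include MYLK, MYO5A, FLNC, PALLD and CFL1, which passed. The closing rows of each file, which count no gene, were dropped before scaling and testing. Reads outside genes, on more than 1 gene, and aligned to more than 1 place made up 6.11% to 10.5%, 1.90% to 2.33% and 1.42% to 1.80% of each file.

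Groups and replicate numbers follow the titles. Counts were fitted in R 4.3.3 with edgeR 4.0.16 (filterByExpr with minimum count 10 and minimum total 15, TMM, quasi-likelihood F test without a block, prior count 0.125), adjusted by Benjamini-Hochberg over 14617 genes, with a call below 0.05. The common dispersion corresponds to a coefficient of variation of 0.113. Each SE was taken as the log2 fold change without shrinkage over the square root of its F value. On simulated counts over 14617 genes the fit called 70 of 98 genes changed 2-fold, 85 of 100 changed 4-fold and 7 of 14127 unchanged genes. The simulated libraries all had the same dispersion trend and few changed genes, which the real libraries do not share. These counts therefore do not give the rate of false calls in the real libraries. Both pairs of libraries differed by more than counting noise (chi-square per degree of freedom 5.40 for the BRG1-labelled pair and 39.8 for the controls), so none were merged.

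The 48 symbols, their roles and the other lists were chosen with earlier results of these data known. Values per library are given for the 6 largest rises, the falls, the gene with the most reads in each role and SRF, and for others added after their values were seen; of each further list the 3 genes with the smallest adjusted p are named, except 2 genes that are not reported here, and ROCK2 and EZR were added after their values were seen. For those lists and for PFN1, the gene name table filled in symbols that the files leave blank. Alternatives were other scalings and filters, DESeq2 1.42.0, limma-voom (limma 3.58.1), the replicate number as a block, a threshold of 0.01, each library left out in turn, and removal of the trend with gene span. That trend was a lowess fit in each library of log2 CPM, less the gene's mean over the 4 libraries, on gene span (applied to the 77.5% of tested genes with a span).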

Additional observations from a re-analysis of the deposited data

Results flagged for a closer look

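Reads that fall outside annotated genes enter no comparison. They made up 10.4% of all listed reads on average in the BRG1-labelled libraries and 6.73% in controls, higher in both BRG1-labelled libraries (10.3% and 10.5%) than in both controls (6.11% and 7.34%). Their part in the changes of the actin genes was not tested.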

How the results depend on the processing

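Of the 21 calls among the actin genes, the same 21 were made with DESeq2's size factors, with limma-voom and with the stricter filter of 50 reads in 2 libraries, which left 40 of the 42 tested. DESeq2 and the fit without a filter each lost MYO5A. The labels do not say whether the replicate numbers pair the libraries. Deviations of same-numbered libraries from their group means correlated at -0.037, which with 2 libraries per group cannot show whether they share a culture or day. With the replicate block 16 actin genes rose, against 21.8% of all genes, and 4 fell, against 24%, with CFL1 lost (adjusted p = 0.0567).

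With scaling by library size alone 27 actin genes rose and 1 fell, 4819 of all genes rose and 2140 fell, and 52 of the other actin genes rose. With the gene span trend removed 2 actin genes fell, against 21.6% of all genes. At an adjusted p of 0.01 the actin genes gave 12 rises and 2 falls, beside 2056 rises and 2611 falls among the 14617 genes tested. The median log2 fold change of the actin genes was 0.40 with library size alone, 0.14 without a filter and 0.20 with the stricter filter. Leaving out each library in turn gave 11 to 28 calls among the actin genes, 10 to 20 of them higher and 1 to 8 lower, and a median of 0.14 to 0.23. Over all genes it gave 4085 to 7994 calls (1908 to 3673 higher, 2177 to 4321 lower), and over the other actin genes 40 to 79 (20 to 41 higher, 18 to 38 lower). The lowest counts came without 1 of the BRG1-labelled libraries, where the control pair alone sets the spread, and a library left alone in its group is assumed to vary like the other pair. Without control 1 ACTG1, ACTN4, DSTN, MYL12A, MYL6 and MYO1C passed as well, and without control 2 ACTG1, ARPC2, MYL12B, MYL6, MYO1C, MYO6, MYO9B and SRF.

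No value passed under the setting that turned its sign. With library size alone these were ACTN4 (0.13), ARPC2 (0.16), MYL12B (0.023), MYL6 (0.033), MYO1E (0.083) and SMTN (0.13). With the span trend removed they were CFL1 (0.038), CORO1C (-0.054), DIAPH1 (-0.15), MYH11 (-0.083), MYL6 (0.17) and MYO6 (-0.065), and without a filter ACTB (-0.019). With each library left out in turn, ACTB ranged from -0.054 to 0.056, ARPC2 from -0.21 to 0.071, DES from -0.31 to 1.19, DIAPH3 from -0.51 to 0.0090, DSTN from -0.031 to 0.33, MYH11 from -0.24 to 0.44, MYL12A from -0.014 to 0.33 and SMTN from -0.21 to 0.011. The cause of these changes was not tested. Depth limits DES, MYH11, DIAPH3 and MYO1D, which had at most 247 reads in any library.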

Other observations

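The control libraries differed from each other along gene span. Of the 42 actin genes 24 were higher in control 2 than in control 1, with a median span of 92.8 kb, and 18 were lower, with a median span of 20.3 kb over the 16 of them that have one. Across the 40 genes with a span the Spearman correlation of the log2 ratio of control 2 to control 1 with span was 0.42, and across all tested genes with a span it was 0.24, while between the BRG1-labelled libraries it was -0.040. These points share the same 2 libraries and are a description.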
